A study of Mus musculus with 75 samples.

Results

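The Foxb1 locus was examined as the regions of acetylated histone H3 lysine 27 (H3K27ac) and of open chromatin that overlap the window from 69.5 to 69.7 Mb of mouse chromosome 9 (mm9) around the gene Foxb1. The window held 5 of the 126368 H3K27ac regions and 1 of the 48634 ATAC regions in the deposited tables. The window was chosen because earlier results of these data showed a difference between the sorts there, so every value of that difference below is a description and carries no test. All 6 regions lay above the lowest 10% of mean signal, the cutoff for testing, and so entered the treatment comparisons with 113725 H3K27ac and 43767 ATAC regions in all.

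Foxb1 encodes a forkhead transcription factor. In the mouse it is known from the developing diencephalon and from neurons of the mammillary body, at the caudal end of the hypothalamus, and mice without it have defects of the mammillary body and its axon tract to the thalamus. H3K27ac marks active promoters and enhancers, and long stretches of it often cover genes that specify a cell's identity. ATAC-seq uses a transposase that cuts accessible DNA, and so maps open promoters and enhancers at finer scale.

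The nuclei came from pooled hypothalami of LepRcre/+; SUN1-sfGFP/+ mice, in which Cre made from the leptin receptor locus switches on a green fluorescent tag of the nuclear envelope. GFP-positive nuclei stand for cells with LepRb, the long form of the receptor for the satiety hormone leptin. GFP-negative nuclei are a mixture of all other cell types of the dissected tissue. Because Cre recombination is permanent, the tag also marks cells that made Cre only earlier in life. All groups carried both alleles. In Lep2 the mice were fasted for 36 h, with saline at 12 and 24 h (title code SSL). They were given leptin at 5 mg/kg once, at 34 h. In Lep24 the mice were fasted for 36 h and given the same leptin dose at 12, 24 and 34 h. Fast mice were fasted for 36 h with saline at those 3 times. Fed mice, labelled Fed - Saline (title code SSS, as in Fast), ate freely for 36 h with saline at the same times. Each of the 4 treatments and 2 sorts had 2 libraries per assay, 16 H3K27ac and 16 ATAC libraries in all. The labels used here give neither the age nor the sex of the animals behind a library, and do not say that the 2 libraries of a group came from separate pools, so the p-values cover the spread among these libraries alone, which may be technical.

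The files pair no region with a gene, so which region holds the Foxb1 promoter is not stated here, and the tissue could not be checked against its markers by name. In RefSeq's order of genes (assembly GRCm38.p6, used for names only), Foxb1 lies between the long noncoding RNA genes Gm31469 and B230323A14Rik. The nearest protein-coding genes on either side are Anxa2, an annexin gene, and Bnip2. Total signal per library was 9247619 to 10963342 for H3K27ac and 1232939 to 1415507 for ATAC, on the authors' normalized scale. A set of 6 H3K27ac libraries, replicate 1 of Lep2, Lep24 and Fed in both sorts, stood apart in its share of mitochondrial signal, 0.075% to 0.238%, against 0.0102% to 0.0384% in the other 10. Neither Fast replicate belongs to the set, so every H3K27ac comparison with Fast also sets libraries of the set against libraries outside it, and results are given for both below.

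H3K27ac at the locus formed one long stretch with an outlying region on each side. Region 1 (chr9:69514804-69521936, 7133 bp) was followed after a gap of 76775 bp by region 2 (chr9:69598712-69605280, 6569 bp). Region 2 touched region 3 (chr9:69605281-69608765, 3485 bp), and region 3 touched region 4 (chr9:69608766-69619485, 10720 bp), which made an unbroken stretch of 20774 bp. Region 5 (chr9:69670919-69671629, 711 bp) lay 51433 bp beyond it. The only ATAC region of the window (chr9:69608216-69609104, 889 bp) straddled the border of regions 3 and 4, with 550 bp in region 3 and 339 bp in region 4. Of the 9296 H3K27ac regions of the table that are at least 10 kb long, as region 4 is, 32.1% held 1 ATAC region and 40.8% held more than 1.

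**Figure D1:**
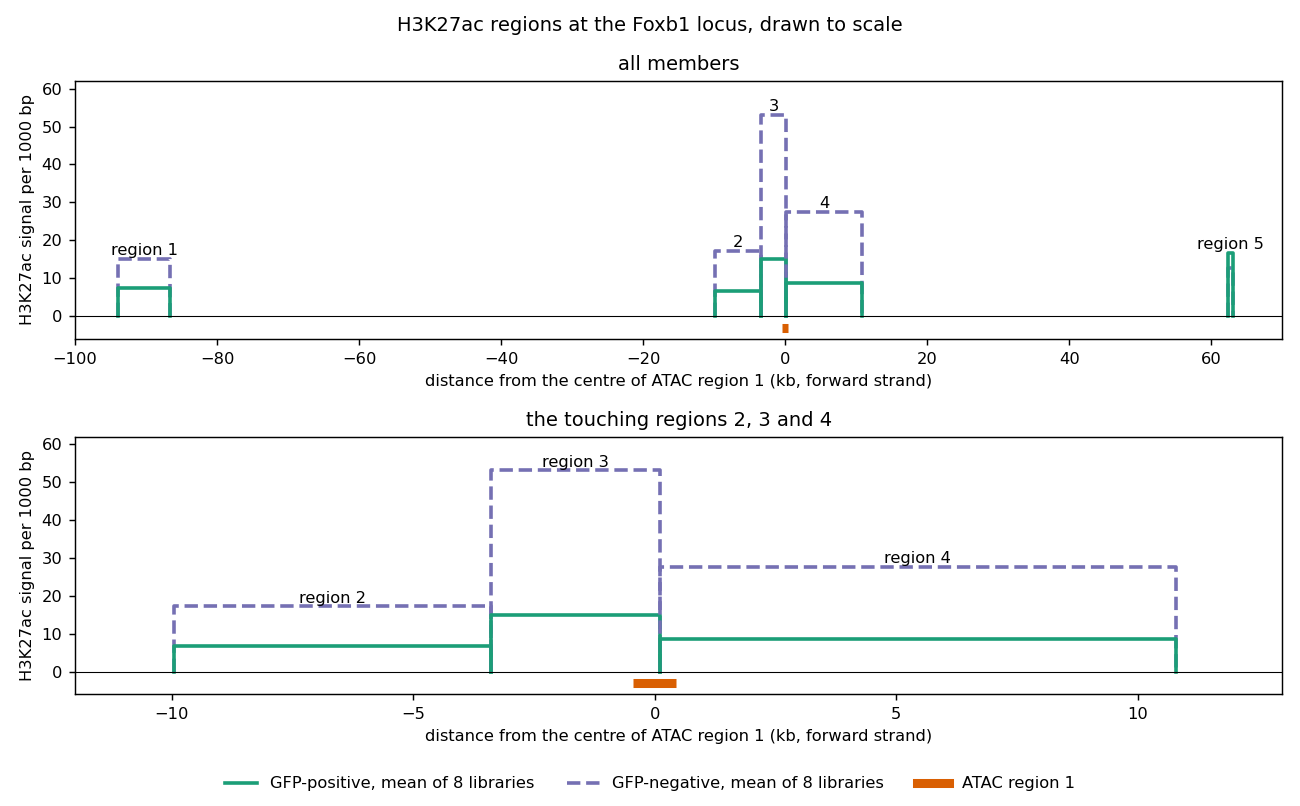
Mean H3K27ac signal per kb (y axis) of the regions at the locus, by distance from the centre of the ATAC region in kb (x axis), with GFP-positive nuclei as solid and GFP-negative nuclei as dashed outlines, means of 8 libraries each. Region 3, beside the ATAC region, reached 15.0 in GFP-positive nuclei and 53.1 in GFP-negative ones, and the 3 touching regions and region 1 were lower in GFP-positive nuclei.

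Acetylation of the stretch was lower in GFP-positive than in GFP-negative nuclei, 2.66 times in region 2, 3.25 times in region 3 and 3.17 times in region 4 on the fitted scale. Region 4, the region with the highest mean signal, averaged 92.5 ± 17.9 in GFP-positive nuclei and 296 ± 57.6 in GFP-negative ones (normalized signal, SD, n = 8 libraries each). Region 3 averaged 52.1 ± 7.89 in GFP-positive nuclei and 185 ± 73.4 in GFP-negative ones, and region 2 averaged 43.9 ± 17.3 in GFP-positive nuclei and 113 ± 11.8 in GFP-negative ones (SD, n = 8 each). The highest GFP-positive library lay below the lowest GFP-negative library in each of these 3 regions. The locus was chosen by this contrast, and the share of all tested regions separated in this way was not computed. Because the libraries come from bulk nuclei, fewer nuclei with the mark and less of the mark per nucleus cannot be told apart.

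In region 4, GFP-positive nuclei had 126.0 and 88.9 in Lep2, 102.7 and 105.4 in Lep24, 86.9 and 75.9 in Fast, and 71.4 and 82.7 in Fed (replicates 1 and 2). GFP-negative nuclei had 247.0 and 341.3 in Lep2, 266.7 and 364.2 in Lep24, 363.0 and 307.9 in Fast, and 207.0 and 269.1 in Fed. The sorts did not overlap in any treatment, and the GFP-positive maximum, in Lep2, was 126.0, against a GFP-negative minimum of 207.0 in Fed. On the log2(signal + 1) scale the fitted difference of GFP-positive minus GFP-negative was -1.66 (SE 0.13). It was -1.45 in Lep2, -1.57 in Lep24, -2.03 in Fast and -1.61 in Fed.

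Region 3 had a difference between the sorts close to that of region 4, -1.70 on the log2(signal + 1) scale (SE 0.24), and the highest signal per length. Which of the pair differed more depended on the setting: under quantile normalization region 4 had -1.65 and region 3 -1.64. GFP-positive nuclei had 68.2 and 56.6 in Lep2, 48.8 and 41.3 in Lep24, 52.3 and 52.0 in Fast, and 46.9 and 51.0 in Fed. GFP-negative nuclei had 111.0 and 217.1 in Lep2, 74.6 and 280.5 in Lep24, 220.2 and 248.9 in Fast, and 121.0 and 206.6 in Fed. The GFP-positive libraries varied little, while the GFP-negative ones fell into a low group and a high group. The 3 low ones, at 74.6 to 121.0, are the libraries of the set of 6, and the other 5 had 206.6 to 280.5. Within the set the GFP-positive libraries had 46.9 to 68.2, and outside it 41.3 to 56.6. The difference between the sorts was -0.88 within the set and -2.20 outside it.

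Region 4 differed in the same direction, but its GFP-negative ranges nearly met and formed no clear low and high group. Its GFP-negative signal was 207.0 to 266.7 in the set and 269.1 to 364.2 outside it, and its GFP-positive signal was 71.4 to 126.0 in the set and 75.9 to 105.4 outside it. The difference between the sorts in region 4 was -1.28 within the set and -1.86 outside it. The Fast libraries are all outside the set, so treatment is mixed into this comparison. The part of the library set in these values was not tested.

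Regions 1 and 2 were lower in GFP-positive nuclei too. Region 1 had 31.6 to 102.8 in GFP-positive nuclei (median 44.0) and 79.9 to 123.3 in GFP-negative nuclei (median 111), a difference of -1.09 on the log2(signal + 1) scale. Replicate 1 of Lep2 at 102.8 and replicate 1 of Lep24 at 81.5 were the GFP-positive libraries that reached the GFP-negative range, both from the set of 6. The region 1 difference was -0.61 within that set and -1.39 outside it. The same Lep2 library was also the highest GFP-positive library in regions 2, 3 and 4. Region 2 had 32.9 to 84.3 in GFP-positive nuclei (median 37.0) and 94.3 to 127.3 in GFP-negative nuclei (median 115), a difference of -1.41. Within the set of 6 it was -0.98, and outside it -1.69.

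Region 5, the shortest and weakest, went the other way. Its signal was 7.8 to 20.5 in GFP-positive nuclei (median 11.4) and 3.2 to 15.2 in GFP-negative nuclei (median 8.5). The sorts overlapped in Lep2, Lep24 and Fed. In Fast they had 20.5 and 13.1 in GFP-positive nuclei and 9.0 and 12.7 in GFP-negative ones. There 13.1 and 12.7 lie closer than the step to the next lower value, 1.2 and 1.5 units in those libraries. The values of region 5 are thus coarse. The difference of 0.43 over all treatments was 0.01 within the set of 6 and 0.72 outside it. Per kb of its length, region 5 had 16.7 ± 5.54 in GFP-positive nuclei and 12.7 ± 5.88 in GFP-negative ones (SD, n = 8 each), a density in GFP-positive nuclei near the 15.0 ± 2.26 of region 3.

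**Figure D2:**
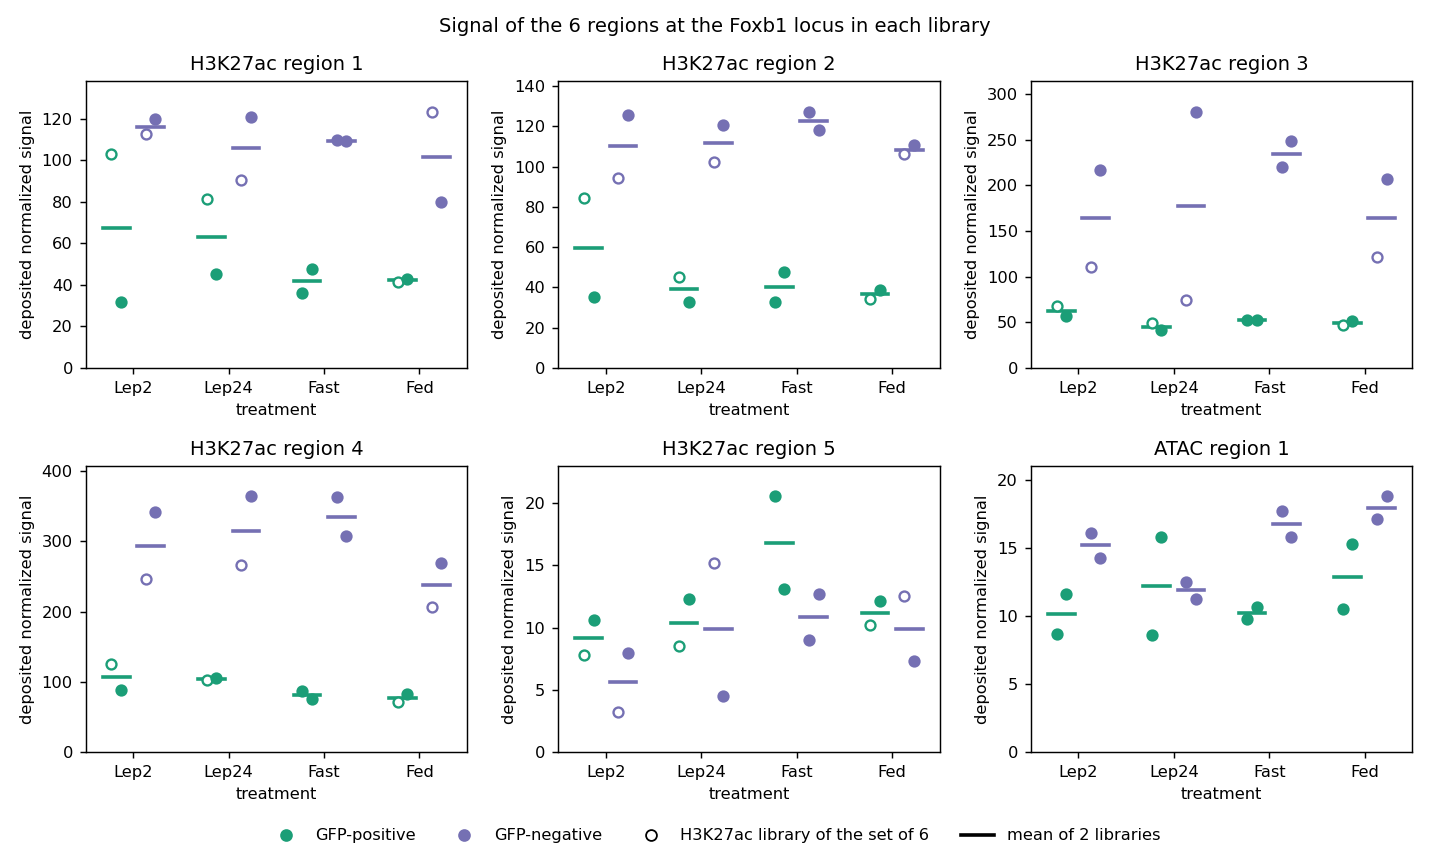
Deposited normalized signal (y axes from 0) of each region in each library, by treatment, with GFP-positive left of GFP-negative, bars at the mean of 2 libraries and open symbols for the H3K27ac libraries of the set of 6. In region 3 the open GFP-negative symbols, 74.6 to 121.0, lie below the filled ones, 206.6 to 280.5.

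Among all tested H3K27ac regions the locus stood at the low end of the difference between sorts. Only 96 of 113725 tested regions had a lower difference than region 3 (0.0844%), and 119 a lower one than region 4 (0.105%). Region 2 had 399 regions below it and region 1 had 1467, while region 5 had 89.5% of tested regions below it. The median of all tested regions was 0.03 and the lowest 5% began at -0.72. Of the 9296 regions at least 10 kb long, 30 had a lower difference than region 4. The authors' deposited table gives log2 fold changes of GFP-positive over GFP-negative of -1.83 for region 4, -1.92 for region 3, -1.62 for region 2, -1.34 for region 1 and 0.37 for region 5. It does not state which treatments they cover. It also lists separate terms that join each leptin group with the sort. These values may therefore leave out the leptin groups, and are not the same measure as the fitted means over all treatments.

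Each GFP-positive library was then set beside the GFP-negative library of the same treatment and replicate number. The replicate numbers were not taken to pair the libraries, so this is a description. In regions 2, 3 and 4, GFP-positive was lower in 8 of 8 such pairs. That count follows from the separation of the sorts given above and adds nothing to it. In region 1, where the sorts overlap, GFP-positive was lower in 8 of 8 pairs, and in region 5 in 2 of 8. The pair values for region 4 ran from -2.05 to -0.97 on the log2(signal + 1) scale. Those for region 3 ran from -2.73, in replicate 2 of Lep24, to -0.60, in replicate 1 of Lep24. In region 1 the smallest was -0.13, in replicate 1 of Lep2, so at that region the pairs ranged from nearly equal to a 3.79-fold lower GFP-positive level. For regions 3 and 4 every pair of the set of 6 showed a smaller difference than every other pair: region 3 had -1.35 to -0.60 in the set and -2.73 to -1.92 outside it.

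**Figure D3:**
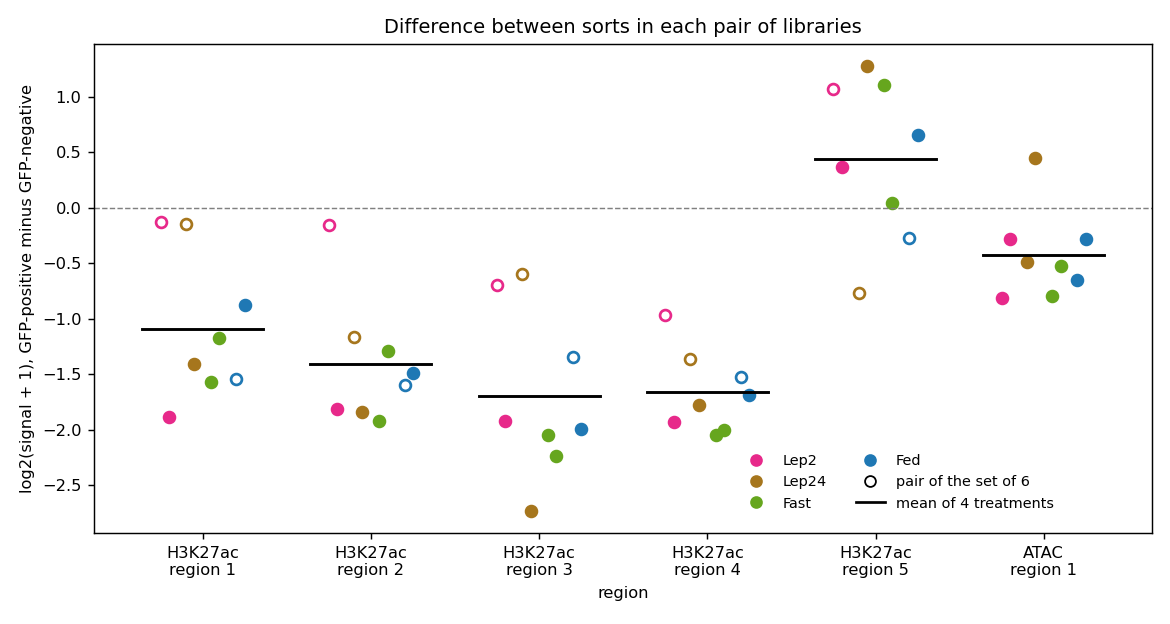
Difference of log2(signal + 1), GFP-positive minus GFP-negative (y axis), in each pair of libraries of the same treatment and replicate number for each region (x axis), with open symbols for pairs of the set of 6 and a bar at the mean over the 4 treatments. All pairs are below 0 in H3K27ac regions 1 to 4, and 7 of 8 are below 0 in the ATAC region.

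The ATAC region was also lower on average in GFP-positive nuclei, by a smaller log2 difference than H3K27ac regions 1 to 4; the gap between the assays was not tested. The ATAC region averaged 11.4 ± 2.77 in GFP-positive nuclei and 15.4 ± 2.59 in GFP-negative ones (normalized signal, SD, n = 8 each). GFP-positive nuclei had 8.7 and 11.6 in Lep2, 8.6 and 15.8 in Lep24, 9.8 and 10.7 in Fast, and 10.5 and 15.3 in Fed. GFP-negative nuclei had 16.1 and 14.3 in Lep2, 12.5 and 11.3 in Lep24, 17.7 and 15.8 in Fast, and 17.1 and 18.8 in Fed. The sorts were apart in Lep2, Fast and Fed and overlapped in Lep24, where replicate 2 had a higher value in GFP-positive nuclei. Over all treatments they overlapped, with 8.6 to 15.8 in GFP-positive and 11.3 to 18.8 in GFP-negative nuclei. The share of all tested ATAC regions that are apart within a treatment in this way was not computed. The fitted difference was -0.42 (SE 0.18), and 12.8% of tested ATAC regions had a lower one. By treatment it was -0.55 in Lep2, -0.02 in Lep24, -0.66 in Fast and -0.47 in Fed. The authors' deposited table gives a log2 fold change of -0.60 for this region in its comparison of the sorts. As for H3K27ac, that value may leave out the leptin groups, so it is not the same measure as the -0.42 over all treatments.

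The values of this ATAC region are coarse. Near it, neighbouring values in a GFP-positive library were 0.6 to 2.3 units apart and in a GFP-negative library 0.5 to 1.1 units, so a single step in the coarsest library, replicate 2 of Fast in GFP-positive nuclei, moves its value of 10.7 by 2.3. Its mean signal was near the middle of the table, with 49.2% of ATAC regions higher.

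The ATAC region was set against other places where both assays have regions. The table of tested regions holds 43 other overlapping pairs whose H3K27ac difference was as low as that of region 4 or lower. The ATAC difference in those pairs had a median of -1.16 and quartiles of -1.55 and -0.81. It was lower than that of the Foxb1 ATAC region in 41 of the 43. These pairs were picked by the same contrast that chose the locus, so this is a description of where it stands.

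The regions next to the window give its surroundings. Beyond its end, the next H3K27ac region (chr9:69712771-69715670) averaged 24.0 ± 5.97 in GFP-positive nuclei and 44.3 ± 6.55 in GFP-negative ones (SD, n = 8 each), a difference of -0.88. The next ATAC region (chr9:69714483-69715431) lies in it and averaged 11.5 ± 6.57 in GFP-positive nuclei and 31.9 ± 5.95 in GFP-negative ones, a difference of -1.54 that is larger than at the ATAC region inside the window. Before its start, the nearest H3K27ac region (chr9:69477183-69478382) averaged 7.69 ± 3.55 in GFP-positive nuclei and 11.7 ± 9.22 in GFP-negative ones, a difference of -0.35. The nearest ATAC region on that side (chr9:69372370-69372689) averaged 3.28 ± 2.14 in GFP-positive nuclei and 5.64 ± 2.62 in GFP-negative ones and was too low to be tested.

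No region of the locus passed the test in any treatment comparison. The question of these comparisons is whether fasting and leptin changed chromatin at the locus in either sort. For H3K27ac, 0 of 5 regions were called in Lep2 minus Fast, Lep24 minus Fast or Fast minus Fed within either sort (limma, adjusted p under 0.05). The background was the same, with 0 of 113725 tested regions called (0%) in each of these 6 comparisons and 2176 to 6884 at an unadjusted p under 0.05. For ATAC, 0 of 1 region was called, beside 0 of 43767 (0%) in each comparison and 653 to 3434 at an unadjusted p under 0.05. None of the 36 tests on the 6 regions had an unadjusted p under 0.05, and the smallest was 0.0834. The authors' deposited table, in its comparisons of each leptin group with Fast within a sort, likewise gives an FDR of 1 for all 6 regions and lists 0 regions under 0.05 in either assay.

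The smallest p belonged to region 4 in Fast minus Fed in GFP-negative nuclei. There the Fast libraries had 363.0 and 307.9, against 207.0 and 269.1 in Fed. The log2 difference of 0.50 (SE 0.27, 95% confidence interval -0.08 to 1.08) had an adjusted p of 0.716 in limma. Without the Fed library that belongs to the set of 6, the comparison is between 363.0 and 307.9 in Fast and the remaining 269.1 in Fed, and the fit to the 10 libraries outside the set gave 0.31. In GFP-positive nuclei, region 4 had 86.9 and 75.9 in Fast, against 71.4 and 82.7 in Fed, groups that overlap, with a difference of 0.08 (interval -0.50 to 0.66).

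In GFP-positive nuclei, region 4 had higher values in both leptin groups than in Fast, without overlap, but neither difference passed the test. Groups of 2 libraries without overlap were found in both sorts and in both directions. Of 15 treatment comparisons of H3K27ac regions in GFP-positive nuclei, 5 had both libraries above and 3 both below. In GFP-negative nuclei 4 of 15 had both above and 2 both below. Region 3 went the other way in Lep24 in GFP-positive nuclei, with 48.8 and 41.3, against 52.3 and 52.0 in Fast. The share over all tested regions was not computed, so these counts cannot be read as a trait of the locus. In region 4 the Lep2 libraries had 126.0 and 88.9 and the Lep24 libraries 102.7 and 105.4, against 86.9 and 75.9 in Fast. The log2 differences were 0.38 for Lep2 (interval -0.20 to 0.95, limma adjusted p 0.923) and 0.35 for Lep24 (interval -0.22 to 0.93, limma adjusted p 0.942). Outside the set of 6 they were 0.13 for Lep2 and 0.37 for Lep24. Single Lep2 libraries moved the Lep2 difference, to 0.13 without replicate 1 and 0.63 without replicate 2. Both differences use the same Fast libraries, so they are not independent of each other. In GFP-negative nuclei the differences from Fast were -0.20 for Lep2 and -0.10 for Lep24, with overlapping libraries. Without the set of 6, the lone Lep2 library of that sort had 341.3 and the lone Lep24 library 364.2, against 363.0 and 307.9 in Fast, and both differences turned positive, at 0.03 for Lep2 and 0.12 for Lep24. The Lep24 difference was also positive, at 0.02, without replicate 1 of Fast, a library outside the set, so the sign of neither difference is settled by these libraries.

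None of the other regions passed the test in these comparisons. In region 3 the log2 differences of the leptin groups from Fast in GFP-negative nuclei were -0.59 for Lep2 and -0.69 for Lep24, each with an interval that includes 0, and in both groups the low library is the one from the set. In region 5 the differences from Fast ran from -0.93 to -0.31 over both leptin groups and both sorts, at signal values of 3.2 to 20.5. Over all 5 H3K27ac regions and 6 comparisons the differences ran from -0.93 to 0.56. For the ATAC region they ran from -0.46, in Lep24 minus Fast in GFP-negative nuclei, to 0.18, in Lep24 minus Fast in GFP-positive nuclei. The -0.46 came from 12.5 and 11.3 in Lep24, against 17.7 and 15.8 in Fast, and had a limma adjusted p of 1.

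**Figure D4:**
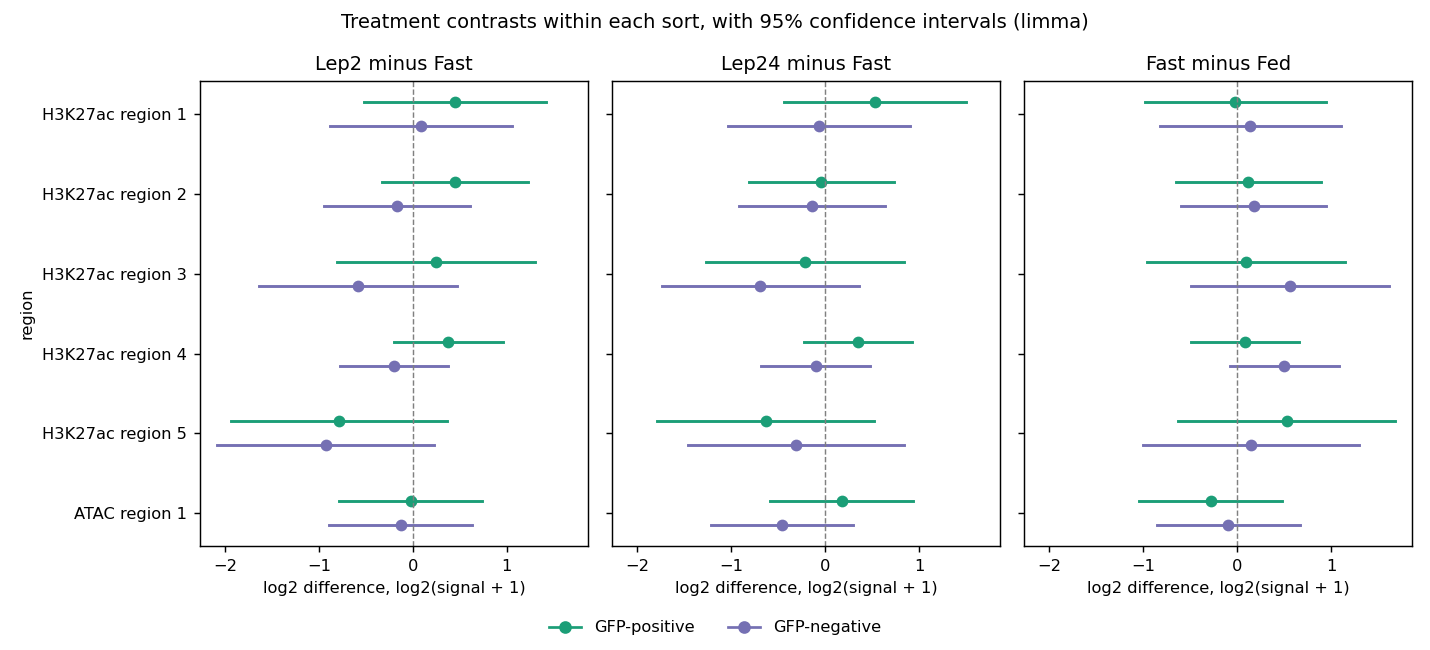
Log2 differences on the log2(signal + 1) scale (x axes) with 95% confidence intervals from limma for the 3 treatment comparisons within each sort, GFP-positive above GFP-negative, for each region (y axis). Every interval includes 0; that of region 4 in Fast minus Fed in GFP-negative nuclei, -0.08 to 1.08, comes closest to leaving it out.

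Whether treatments acted differently in the 2 sorts was tested as the difference of each treatment change between GFP-positive and GFP-negative nuclei. For H3K27ac 0 of 5 regions and for ATAC 0 of 1 region were called in any of the 3 comparisons (limma, adjusted p under 0.05), against 0% of all tested regions in either assay. Over all tested regions, 2464 to 2689 H3K27ac and 1301 to 1744 ATAC regions had an unadjusted p under 0.05. None of the 6 regions did, and their adjusted p was 1 throughout. For region 4 the change in GFP-positive minus that in GFP-negative nuclei was 0.58 for Lep2 minus Fast (interval -0.23 to 1.4), 0.45 for Lep24 minus Fast (interval -0.36 to 1.27) and -0.42 for Fast minus Fed (interval -1.24 to 0.39). In the 10 libraries outside the set the same values were 0.10 for Lep2 minus Fast, 0.25 for Lep24 minus Fast and -0.34 for Fast minus Fed. With single libraries left out, the Lep2 value ran from 0.33, without replicate 1 of Lep2 in GFP-positive nuclei, to 0.83, without replicate 2, and the Lep24 value from 0.23, without replicate 1 of Lep24 in GFP-negative nuclei, to 0.68, without replicate 2. Changes of any size within these intervals are compatible with these data, which have 2 libraries a group.

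Regions with a pattern like that of region 4 were looked for across the 16 H3K27ac libraries, by Pearson's r of log2(signal + 1), as a description. The points share libraries and the split between sorts, and 820 of 113720 other regions had an r over 0.9. The closest was chr11:18912840-18921986 (r = 0.978), with 74.7 ± 30.1 in GFP-positive nuclei and 315 ± 83.7 in GFP-negative ones. Next came chr16:26709928-26716294 (r = 0.977), chr1:182871539-182877086 (r = 0.976), chr1:74334899-74351573 (r = 0.974) and chr4:115422905-115428074 (r = 0.972), all lower in GFP-positive nuclei. Likeness to the ATAC region was weaker, with 0 of 43766 regions over 0.9 and a highest r of 0.87, at chr16:18021734-18022161.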

How the data were processed

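Nuclei were sorted from hypothalami for H3K27ac ChIP-seq and ATAC-seq. The authors deposited, per the file headers, 1 table an assay with normalized signal for every region and library, variance-stabilized values (score), and log2 fold changes with FDR p-values for their own comparisons. The sources used here do not say how the signal was normalized. The submitters' processing notes name DESeq2 1.16.1, HTSeq 0.6.0, MACS2, Bowtie2 2.2.6, Bowtie 1.2, STAR 2.5.2b, CASAVA 1.8 and the build mm9, with no role for each. Whole reads could not be recovered from the signal, so depth in reads is unknown and no count model was used. RNA libraries (23) and inputs (16 ChIP, 4 ATAC) were not used here.

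Regions with mean signal in the lowest 10% (below 5.96 for H3K27ac and 5.44 for ATAC) were left out. Values were taken to log2(signal + 1), which understates changes of low regions. The model (limma 3.58.1, R 4.3.3) had 8 group means, a trended prior and 8 residual degrees of freedom. P-values are two-sided and adjusted by Benjamini-Hochberg over all tested regions of a comparison. The difference between sorts is the mean over treatments. Deposited starts were raised by 1. The fit was tested on simulated data. Values are given per library for the region of highest mean signal in each assay and for the one with the largest difference between sorts. The regions and lists were chosen with earlier results of these data known. Lists of genes were not run, since regions carry no gene names. Other settings tried were pseudocounts of 0.1 and 5, no filter, quantile normalization, a replicate block and a block for each pair of same-numbered libraries. So were a fit per sort, an adjusted p under 0.1, library weights, and the library set as a term or left out. Signal summed over the regions was tried too, as was leaving out each library in turn. Variance-stabilized values and the set of 6 alone were chosen after seeing the data. Plots used matplotlib 3.10.9.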

Additional observations from a re-analysis of the deposited data

How the results depend on the processing

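Under all alternatives run (25 for ATAC and 27 for H3K27ac), 0 regions of the locus were called in any treatment comparison (limma). The same held for the difference of a treatment change between the sorts. The difference between the sorts itself was not tested. With a replicate block and all libraries, the smallest adjusted p-value in the treatment comparisons was 0.334 for H3K27ac and 0.899 for ATAC (limma). Counts over the whole tables did move: up to 959 H3K27ac calls in the 10 libraries outside the set, and up to 4433 ATAC calls without replicate 1 of Fast GFP-positive. The difference between sorts of region 4 was -1.73 to -1.60 with each library left out. It was -1.28 in the 6 libraries of the set, against -0.88 for region 3, and -1.03 on the authors' variance-stabilized values, which are another scale, against -0.91 for region 3. A separate measure, signal per kb summed over the 5 regions, had a difference of -1.39. For region 4, Lep24 minus Fast in GFP-negative nuclei turned to 0.053 under quantile normalization and 0.12 outside the set (-0.32 to 0.12 leaving out single libraries). Lep2 minus Fast in GFP-negative nuclei turned to 0.030 outside the set (-0.44 to 0.030). Fast minus Fed in GFP-positive nuclei turned to -0.0077 with the set as a term and -0.026 outside it (-0.026 to 0.18). For the ATAC region, leaving out single libraries gave -0.21 to 0.16 for Lep2 minus Fast and -0.23 to 0.58 for Lep24 minus Fast in GFP-positive nuclei. The change in GFP-positive minus that in GFP-negative nuclei ran from -0.44 to 0.062 for Fast minus Fed. For Lep2 minus Fast it ran from -0.081 to 0.30. The cause of these reversals was not tested. A lone remaining library was assumed to vary like the other groups.

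Libraries with the same replicate number in the 2 sorts deviated together with r of 0.01 to 0.495 for H3K27ac and 0.037 to 0.141 for ATAC, not over 0.1 in every pair, so the numbers were not taken to pair them. A block on the replicate number cannot move the difference between sorts of region 4 (-1.66), since the numbers are balanced over the groups. With it, 0 regions of the locus were called, and 11 ATAC regions of the whole table were called. With 2 libraries a group, and coarse ATAC values, changes of any size within the intervals given are compatible with these data.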

Other observations

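The way H3K27ac signal was divided over the touching regions 2, 3 and 4 was also computed in each library. In GFP-positive nuclei region 3 held 23.0% to 31.3% of the stretch's signal (median 29.6%, n = 8 libraries), and in GFP-negative nuclei 16.8% to 36.9% (median 31.4%, n = 8). Outside the set of 6 libraries it held 23.0% to 31.3% in GFP-positive nuclei and 31.0% to 36.9% in GFP-negative ones (5 libraries each). Within the set it held 24.5% to 30.7% in GFP-positive nuclei and 16.8% to 27.9% in GFP-negative ones (3 libraries each). The part of the library set in the division was not tested. Summed over all 5 regions, signal was 204.4 to 389.1 in GFP-positive and 549.3 to 890.8 in GFP-negative libraries.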
